A study of Mus musculus with 12 samples.

Results

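The 10 genes described here are targets of ATF6 and XBP1, the transcription factors of the endoplasmic reticulum (ER) unfolded protein response: Hspa5, Hsp90b1, Dnajb9, Xbp1, Calr, Pdia4, Herpud1, Sdf2l1, Creld2 and Manf. They were taken by gene symbol from a table of 23893 symbols, and all 10 were found. RNA-seq libraries came from 12 mouse cortical neuron cultures prepared from embryos of E13.5-15.5, with 3 cultures in each of 4 groups. Per the study's methods all cultures carried Top1 fl/fl alleles, whereas the labels give the strain as C57BL6 and the genotype as Wild-type or Top1cKO. WT cultures received a lentivirus encoding tdTomato under the CaMKIIα promoter, and Top1 cKO cultures a virus encoding tdTomato-P2A-CRE under the same promoter, at day in vitro (DIV) 3. That promoter limits expression to neurons, so cells that are not neurons, and neurons the virus missed, keep an intact gene for topoisomerase 1 (TOP1). At DIV 15, cultures received vehicle (Veh, 0.003% DMSO) or 300 nM topotecan (Topot), a TOP1 inhibitor, for 3 days, which gave WT-Veh and WT-Topot with the tdTomato virus and Top1 cKO-Veh and Top1 cKO-Topot with CRE.

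Libraries held 1730164 to 4583777 counts. Top1 was at 117 to 163.5 counts per 1000000 (CPM) in the 6 tdTomato libraries and at 27.1 to 44.0 CPM in the 6 CRE libraries, with no overlap. All 10 neuron markers were detected in every group, and their summed level ran from 7710 to 9562 CPM in WT-Veh and from 8218 to 8799 CPM in WT-Topot. Single neuron markers moved apart within that sum, with log2 fold changes from -0.96 to 1.05 in WT-Topot. By edgeR's quasi-likelihood test Rbfox3 alone of them passed the FDR, lower at 78.4 to 81.6 CPM against 142.4 to 170.5 CPM, and with replicate number as a block 3 markers were lower and 3 higher. Astrocyte RNA was present too, with none of 8 markers at 0 in any group. Their summed level was 2370 to 4826 CPM for WT-Veh and 1087 to 1836 CPM for WT-Topot, without overlap. For Top1 cKO-Veh it was 2685 to 6145 CPM (median 3806) and for Top1 cKO-Topot 1686 to 3110 CPM (median 2503). Markers of microglia summed to 20.2 CPM at most. In such bulk RNA, fewer cells of a type and less RNA per cell cannot be told apart.

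The unfolded protein response is the cell's answer to unfolded protein in the ER. Its sensors are IRE1 (encoded by Ern1), which splices Xbp1 mRNA into the form that encodes an active factor, ATF6, which is cut from the membrane and enters the nucleus, and PERK (Eif2ak3), which slows translation and favors synthesis of ATF4. ATF6 and XBP1 raise transcription of ER chaperones, folding enzymes and components of ER-associated degradation (ERAD). ATF4 is also made when the kinase GCN2 senses a lack of amino acids, and it then raises genes for amino acid synthesis, amino acid transport and tRNA charging. The genes described here report on ATF6 and XBP1, and they were set beside amino acid response genes in the 4 groups. They do not tell ATF4 made through PERK from ATF4 made through GCN2. Gene counts do not tell spliced from unspliced Xbp1.

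Promoter stretches are shown first. RefSeq windows of assembly GRCm38.p6, from 250 bases before to 50 bases after the start of each gene, were found for 9 of the 10 genes, Manf being the exception. They were searched on both strands for the ER stress response element ERSE (CCAAT, 9 bases of any kind, CCACG), for ERSE-II (ATTGG, 1 base, CCACG), for the XBP1-type element UPRE (TGACGTGG) and for the C/EBP-ATF element CARE that ATF4 is known to bind (TGATG, 1 base, AA). Capitals mark the letters of a match, and matches read from the other strand appear reversed and complemented. For comparison, stretches of Asns and Chac1 were picked from the 13 of 35 amino acid response genes with a window that held CARE. The stretches of Hspa5, Hsp90b1, Calr and Creld2 show ERSE, that of Herpud1 CARE followed by ERSE-II, and those of Asns and Chac1 CARE. They lie at chr2:34772005-34772063 (plus strand) for Hspa5, chr10:86705513-86705676 (minus) for Hsp90b1, chr8:84847055-84847113 (minus) for Calr, chr15:88819500-88819558 (plus) for Creld2, chr8:94386305-94386399 (plus) for Herpud1, chr6:7693210-7693252 (minus) for Asns and chr2:119351029-119351076 (plus) for Chac1.
Hspa5: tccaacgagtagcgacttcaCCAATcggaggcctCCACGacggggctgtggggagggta
Hsp90b1: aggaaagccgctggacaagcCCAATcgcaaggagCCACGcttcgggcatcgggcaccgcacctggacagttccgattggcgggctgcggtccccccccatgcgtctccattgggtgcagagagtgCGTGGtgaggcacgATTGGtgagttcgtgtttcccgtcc
Calr: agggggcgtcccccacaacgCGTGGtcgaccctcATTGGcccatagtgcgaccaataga
Creld2: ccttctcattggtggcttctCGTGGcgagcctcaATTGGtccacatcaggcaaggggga
Herpud1: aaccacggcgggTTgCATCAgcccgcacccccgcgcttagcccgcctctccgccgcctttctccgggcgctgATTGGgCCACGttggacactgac
Asns: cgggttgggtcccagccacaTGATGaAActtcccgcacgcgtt
Chac1: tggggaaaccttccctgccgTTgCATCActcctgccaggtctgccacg

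ERSE was present in 4 of the 9 windows and in 0.119% of all 32851 promoter windows, with 2 matches in Hsp90b1. ERSE-II was present in Herpud1 alone of the 9, against 0.0365% of all windows. UPRE was in none of the 9 and in 0.676% of all. CARE was in 1 of the 9, Herpud1, at positions -112 to -105 from its start, against 3.97% of all windows and 13 of the 35 amino acid response genes with a window (37.1%). Herpud1 was thus the only one of the 9 windows with a match to both an ER stress element and CARE. These are letter matches in a short window, not tests of binding.

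The 10 genes covered a wide range of levels. Per kilobase of exon in WT-Veh, Hspa5, the ER Hsp70 chaperone BiP, was at 132 ± 29.3 CPM per kb (SD, n = 3). Calr, the calcium-binding lectin chaperone calreticulin, was at 108 ± 16.7 and Hsp90b1, the ER Hsp90 chaperone GRP94, at 67.0 ± 16.7 CPM per kb. Dnajb9, a J-domain partner of BiP, was at 46.3 ± 6.25, Herpud1, a membrane protein of the ERAD complex, at 36.9 ± 5.86, and Xbp1 at 29.4 ± 3.36 CPM per kb. The disulfide isomerase gene Pdia4 followed at 19.3 ± 9.06, then Manf, a secreted ER protein with neurotrophic activity, at 9.50 ± 1.63, Sdf2l1, a partner of ER J-domain proteins, at 5.86 ± 1.71, and Creld2, an ER stress-induced secretory pathway protein, at 3.24 ± 1.37 CPM per kb. Library ranges overlapped between neighbors in this order except between Calr and Hsp90b1, between Pdia4 and Manf and between Manf and Sdf2l1. Manf counts over RefSeq exons were divided by 3.52 kb of GENCODE exon. Its annotated span also holds exons of Rbm15b and Vprbp. The place of Manf depends on that length, and a shorter one would raise it.

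That order of means was kept in the other groups except that Calr stood above Hspa5 in both Top1 cKO groups and Herpud1 below Xbp1 in all 3. In WT-Topot Herpud1 fell to 15.9 ± 3.39 CPM per kb, at the level of Pdia4 (15.7 ± 2.17) and below every WT-Topot library of Xbp1. Over all 12 libraries the coefficient of variation in CPM was 14.1% for Calr, 15.0% for Dnajb9, 15.4% for Hsp90b1, 16.3% for Xbp1, 20.3% for Hspa5, 20.9% for Manf, 33.5% for Pdia4 and 42.3% for Herpud1. Sdf2l1 (32.7%) and Creld2 (46.6%) rested on 11 to 33 and 3 to 23 reads per library, and their intervals below are the widest of the 10.

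**Figure D1:**
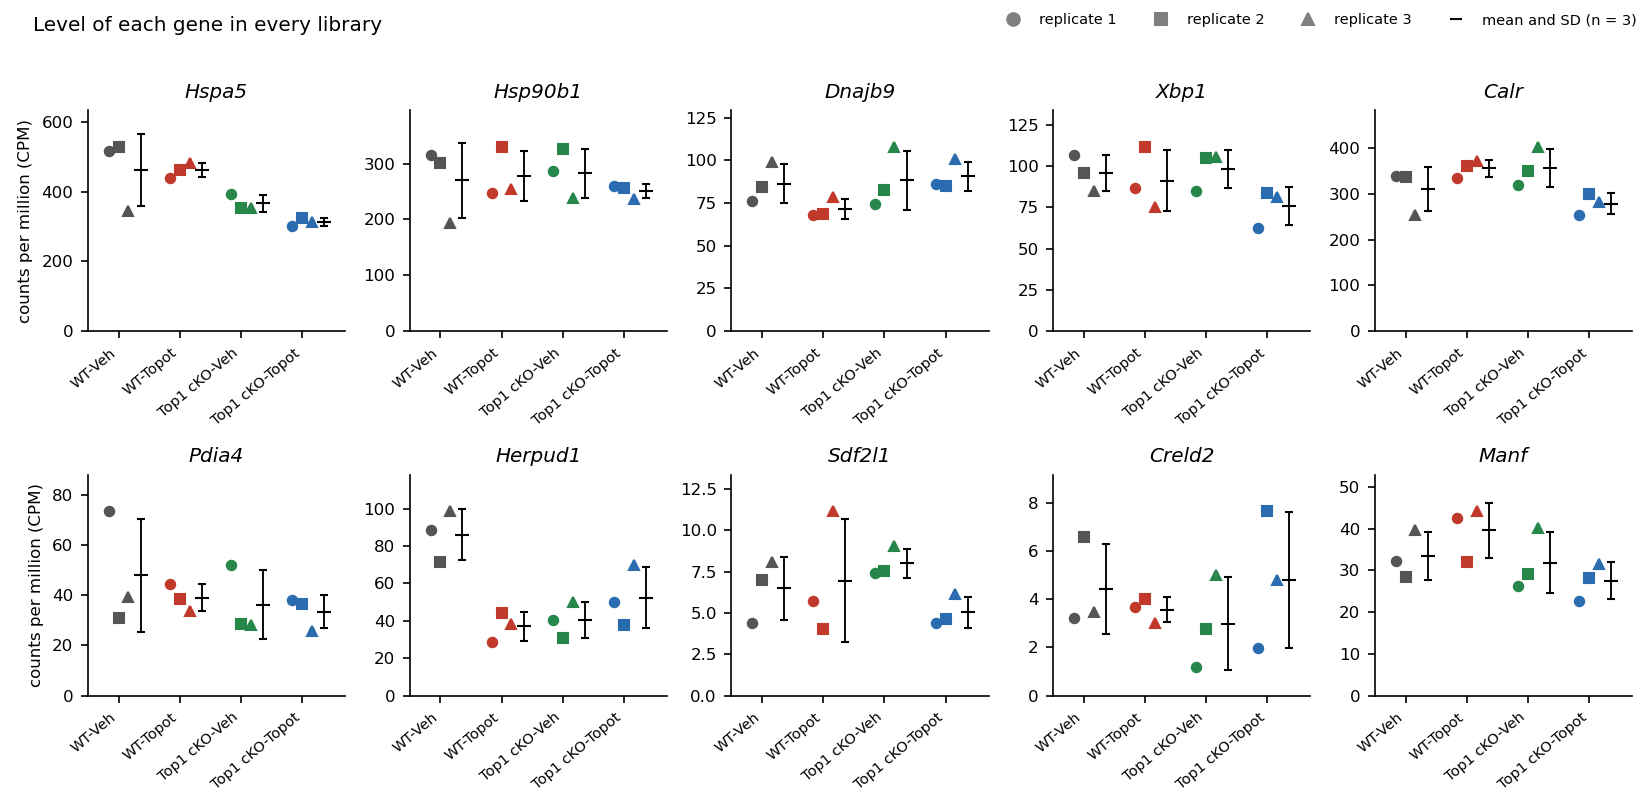
Level of each of the 10 genes (CPM, linear axis from 0) in the 12 libraries, 4 groups of 3 along the horizontal axis, with the mean and SD beside the points and replicate numbers as marker shapes. Herpud1 is the only gene whose 3 WT-Veh libraries (71.4 to 98.5 CPM) all lie above every library of each other group.

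The first comparison asked what topotecan did in WT neurons. Herpud1 fell to 43.0% of its WT-Veh mean, and the other 9 genes, chaperones included, did not pass the test. Herpud1 was at 88.4, 71.4 and 98.5 CPM in WT-Veh replicates 1 to 3 and at 28.5, 44.1 and 38.5 CPM in WT-Topot. Every WT-Topot library lay below every WT-Veh library. The log2 fold change was -1.21 (SE 0.219, 95% interval -1.67 to -0.75), with an adjusted p of 0.00153 by the edgeR quasi-likelihood test, adjusted after Benjamini-Hochberg over 23893 genes. Across the alternatives the adjusted p ran from 5.49e-09 to 0.00709. In mm9, a build whose coordinates differ from those of the promoter windows, Herpud1 lies at chr8:96910338-96919277 on the plus strand. One of 10 genes thus passed a false discovery rate (FDR) of 0.01, where 2.72% of all genes tested did. With replicate number as a block, again 1 of 10 passed, against 8.25% of all genes. Those shares are over every symbol, also those with few or no counts. Of the 13720 genes of at least 1 CPM, as all 10 are, 488 were lower and 163 higher, or 1195 and 771 with the block. Herpud1 was likewise the only one of the 10 whose groups did not overlap, against 26.0% of those 13720 genes.

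The main chaperones bore close limits. Hspa5 was at 517.3, 528.1 and 344.4 CPM in WT-Veh and at 440.7, 463.4 and 481.8 CPM in WT-Topot. The WT-Topot libraries lay inside the WT-Veh range, whose low value was replicate 3. The log2 fold change was 0.00 (SE 0.180), with an interval from 0.771-fold to 1.30-fold. Hsp90b1 was at 315.7, 301.5 and 192.9 CPM in WT-Veh and at 248.0, 329.4 and 254.8 CPM in WT-Topot, a log2 fold change of 0.04 (SE 0.198) with an interval from 0.772-fold to 1.37-fold. Again the lowest WT-Veh library was replicate 3. Calr was at 339.1, 337.0 and 254.6 CPM in WT-Veh and at 335.4, 360.4 and 372.1 CPM in WT-Topot, a log2 fold change of 0.20 (SE 0.172) with an interval from 0.897-fold to 1.48-fold. For these 3 chaperones, then, a rise of 1.5-fold or more lay outside the interval.

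None of the remaining genes passed. Xbp1, itself raised by ATF6 under ER stress, differed by -0.07 (SE 0.198) and Dnajb9, a strong XBP1 target, by -0.26 (SE 0.195) on the log2 scale. Manf differed by 0.25 (SE 0.236) and Pdia4 by -0.30 (SE 0.270), the latter with 1 high WT-Veh library (73.4 CPM in replicate 1, against 31.1 and 39.2 CPM). Sdf2l1 and Creld2 gave intervals from 0.555-fold to 2.09-fold and from 0.399-fold to 1.69-fold. Over the 10 genes the median log2 fold change was -0.03, against 0.03 over all genes of at least 1 CPM, and 5 of the 10 were negative.

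**Figure D2:**
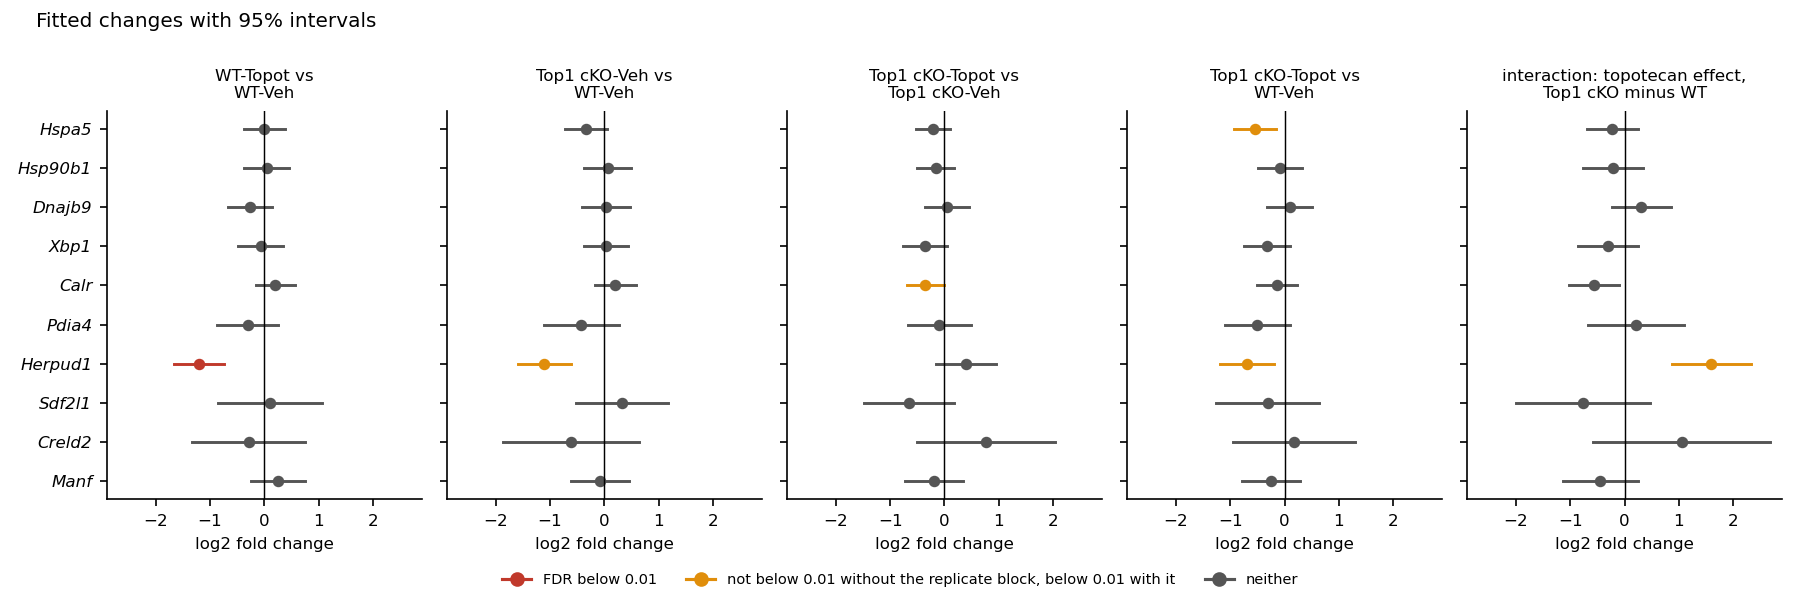
Log2 fold change of each gene with its 95% interval in the 4 group comparisons and the interaction, 1 panel each. Red marks an FDR below 0.01, which Herpud1 alone reached, in WT-Topot vs WT-Veh, and orange marks genes at or above 0.01 in that fit and below 0.01 with the replicate block added, other alternatives not being drawn, which are Herpud1 in the other 3 contrasts that involve WT-Veh, Hspa5 in Top1 cKO-Topot vs WT-Veh and Calr in Top1 cKO-Topot vs Top1 cKO-Veh.

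Of the 3 lists of other ER proteins, Ero1l and Fkbp14 passed in WT-Topot, each under some fits and not others. Of 21 ER chaperones and foldases, 16 ERAD genes and 21 genes of ER translocation and export above 1 CPM, 0 passed by edgeR's quasi-likelihood test, DESeq2 or edgeR's exact test. At an unadjusted p under 0.05 there were 1609 lower and 1324 higher of the 13720 genes of at least 1 CPM. The 3 lists had 4, 1 and 2 such genes. The medians were -0.15, -0.02 and -0.06 on the log2 scale. With the replicate block, Fkbp14, a collagen-directed prolyl isomerase, was higher by 0.92 (SE 0.197) and Ero1l, the oxidase that recharges disulfide isomerases, fell by 0.86 (SE 0.158), both past the FDR. Both also passed without the block when WT-Veh replicate 3 was left out (Ero1l -1.18, adjusted p = 3.47e-05, and Fkbp14 0.99, adjusted p = 0.00917, by edgeR's quasi-likelihood test). The 15 genes of the cytosolic heat shock response also had 0 calls by these tools, 2 at an unadjusted p under 0.05, and a median of -0.09.

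Among the sensors, Atf6 fell with topotecan. It was at 83.5, 125 and 164 CPM in the WT-Veh libraries in order of level and at 41.1, 53.3 and 66.4 CPM in WT-Topot, without overlap. The log2 fold change was -1.21 (SE 0.240, adjusted p = 0.00367 by edgeR's quasi-likelihood test). With edgeR's filter on low counts the adjusted p was 0.0137, and leaving out WT-Topot replicate 3 or WT-Veh replicate 2 gave 0.0148 and 0.0173, so the call was lost in each case. Atf6 is a long gene, spanning 163 kb in the mm9 annotation, where the 10 genes span 2.25 to 53.7 kb. The longest of them is Manf, whose annotated span also holds exons of Rbm15b and Vprbp, and Pdia4 follows at 17.4 kb. Ern1 and Eif2ak3 differed by -0.33 (SE 0.535) and -0.29 (SE 0.264). Wfs1, an ER membrane protein, was at 40.9 to 193.7 CPM in WT-Veh and 159.3 to 274.8 CPM in WT-Topot, with overlap. Its log2 fold change of 1.18 did not pass (adjusted p = 0.0717 by edgeR's quasi-likelihood test). Wfs1 passed with the block (1.37, SE 0.152) and without WT-Veh replicate 2 (1.98, adjusted p = 2.22e-05 by the same test). The other sensor and processing genes did not pass under any alternative run.

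Of the 42 amino acid response genes, 17 fell. All 42 listed genes were above 1 CPM and all 42 had a negative log2 fold change in WT-Topot, with a median of -1.0. At an FDR of 0.01, 17 were lower and 0 higher, and 30 were lower with the replicate block. Of the 13720 genes of at least 1 CPM, 488 were lower and 163 higher, and 1195 were lower with the block. The 42 were chosen with earlier results of these data known. Atf4 itself went from 451.2, 511.0 and 577.1 CPM in the WT-Veh libraries in order of level to 146.5, 152.8 and 189.5 CPM, a log2 fold change of -1.65 (SE 0.180). Asns, which makes asparagine, fell by 1.32 on the log2 scale, Chac1, a glutathione-degrading enzyme, by 2.30, the secreted glycoprotein gene Stc2 by 2.83 and the mitochondrial folate enzyme gene Mthfd2 by 1.87. Ddit3 (-1.05, SE 0.279) and Trib3 (-1.17, SE 0.413), which PERK signaling also raises through ATF4, did not pass with all 6 libraries and no block. Ddit3 passed with the block and, without it, when WT-Veh replicate 3 was left out (-1.28, adjusted p = 1.85e-04 by edgeR's quasi-likelihood test). Without WT-Topot replicate 2 or replicate 3 the count of lower genes was 11 or 10. The lower astrocyte marker sum in WT-Topot, in which Gfap, Slc1a3 and Slc1a2 passed the test with log2 fold changes of -2.54, -1.52 and -1.39, moved with these results and with that of Herpud1, and its part in them was not tested. The 5 interneuron markers summed to 491.9 to 902.3 CPM in WT-Topot and 757.8 to 1690 CPM in WT-Veh, with 0 past the FDR and 4 lower with the block, likewise not tested.

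**Figure D3:**
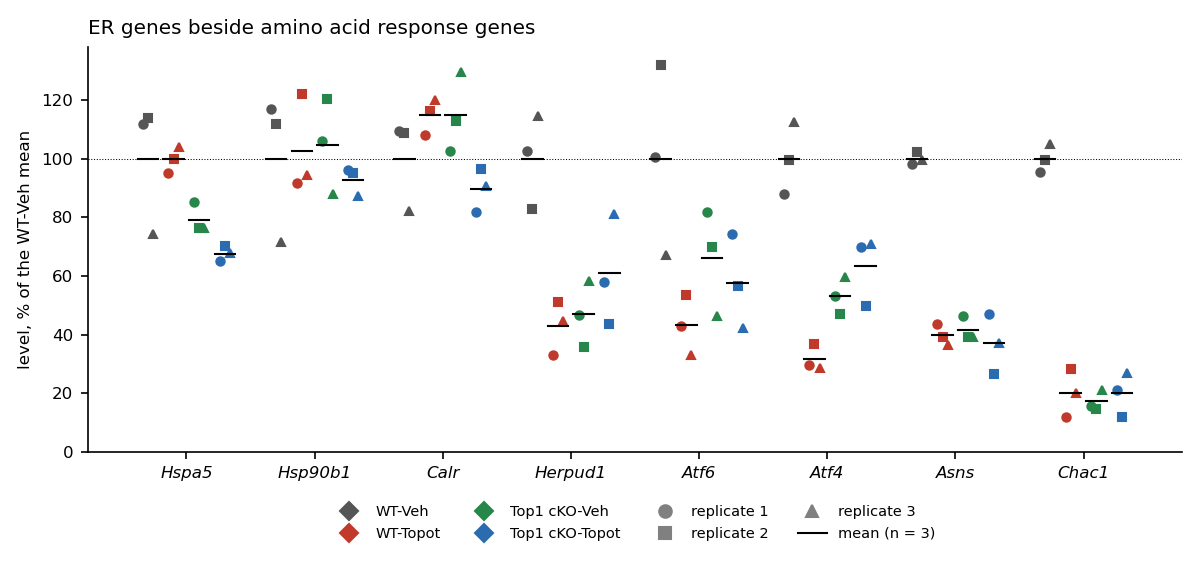
Levels of 4 of the ER genes, Atf6 and 3 amino acid response genes in each library, as a percentage of the WT-Veh mean of the gene (vertical axis from 0), with black lines for group means. Hspa5, Hsp90b1 and Calr average 99.7%, 102.7% and 114.7% in WT-Topot, while Herpud1 (43.0%) lies with Atf6 (43.2%), Asns (39.7%) and Atf4 (31.8%).

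Deletion of Top1 without the drug was the second comparison, which shares its WT-Veh libraries with the first. Herpud1 was at 40.3, 30.7 and 50.1 CPM in Top1 cKO-Veh, below each of its WT-Veh libraries. Its log2 fold change was -1.10 (SE 0.233, interval -1.60 to -0.61), with an adjusted p of 0.0423 by edgeR's quasi-likelihood test. None of the 10 genes therefore passed the FDR of 0.01, and 0.172% of all genes tested passed. At an unadjusted p under 0.05 there was 1, against 1051 lower and 897 higher of the 13720 genes of at least 1 CPM. Herpud1 passed by DESeq2 (0.00267), by edgeR's exact test (0.00643), without Top1 cKO-Veh replicate 3 (0.00985) and with the replicate block (-1.11, SE 0.163, adjusted p = 1.13e-09), a fit in which 5.56% of all genes passed. Of the 13720 genes of at least 1 CPM, 706 were lower and 621 higher with the block, and 30 and 11 without it. Of the 10, Herpud1 alone had groups that did not overlap, against 19.9% of genes of at least 1 CPM.

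No chaperone passed here either. Hspa5 was at 395.0, 353.1 and 353.2 CPM in Top1 cKO-Veh, a log2 fold change of -0.34 (SE 0.186, adjusted p = 0.714 by edgeR's quasi-likelihood test) that became -0.32 (adjusted p = 0.0376) with the block. Its Top1 cKO-Veh libraries lay between the low WT-Veh library and the other 2. Hsp90b1 (0.07, SE 0.204), Dnajb9 (0.03, SE 0.207), Xbp1 (0.04, SE 0.190), Calr (0.20, SE 0.178) and Manf (-0.08, SE 0.254) had intervals that stayed within 0.652-fold and 1.49-fold. Pdia4 (-0.42, SE 0.324), Sdf2l1 (0.33, SE 0.401) and Creld2 (-0.60, SE 0.591) were less closely bounded. The median of the 10 was -0.02, against 0.00 over all genes of at least 1 CPM.

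None of the 21 chaperones and foldases, 16 ERAD genes or 21 translocation and export genes passed in Top1 cKO-Veh by edgeR's quasi-likelihood test, DESeq2, edgeR's exact test or the replicate block. At an unadjusted p under 0.05 there were 2, 0 and 1, against 1051 lower and 897 higher of 13720 genes. Atf6 was at 82.0 ± 22.4 CPM against 124.1 ± 40.2 CPM in WT-Veh (SD, n = 3). Its log2 fold change of -0.60 (SE 0.255) passed with the block alone (adjusted p = 9.84e-04 by edgeR's quasi-likelihood test). Of the amino acid response list, 7 of 42 were lower, 0 were higher and 42 of 42 were negative, with a median of -1.18. With the block 32 were lower, and without WT-Veh replicate 2 or without Top1 cKO-Veh replicate 2 there were 3. Of the 13720 genes of at least 1 CPM, 30 were lower, or 706 with the block. The 7 were Slc7a3 (-3.67), Shmt2 (-2.62), Chac1 (-2.56), Mthfd2 (-2.37), Slc6a9 (-1.90), Slc7a1 (-1.46) and Asns (-1.27), amino acid transporters, enzymes of one-carbon metabolism and of asparagine synthesis, and Chac1. In this comparison the astrocyte sum lay at 2685 to 6145 CPM against 2370 to 4826 CPM, with the ranges overlapping.

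The third comparison asked whether topotecan still acted on these genes after Top1 deletion. By edgeR's quasi-likelihood test 0 of the 10 passed and 0.00837% of all genes tested did, with 0 of the 10 by DESeq2 or edgeR's exact test. At an unadjusted p under 0.05 there was 1 of the 10, against 591 lower and 348 higher of 13720 genes of at least 1 CPM. Calr was at 318.3, 349.7 and 401.8 CPM in Top1 cKO-Veh and at 253.3, 298.9 and 281.1 CPM in Top1 cKO-Topot. The 3 drug-treated libraries all lay below the lowest vehicle library. The log2 fold change was -0.35 (SE 0.157), and it passed with the replicate block (-0.34, SE 0.0888, adjusted p = 0.00578 by edgeR's quasi-likelihood test). In that fit 2.59% of all genes passed, and 414 of the 13720 genes of at least 1 CPM were lower and 205 higher. Hspa5 was at 301.1, 325.1 and 313.4 CPM in Top1 cKO-Topot, each below the Top1 cKO-Veh libraries, for a log2 fold change of -0.22 (SE 0.148). Xbp1 went from 84.9, 104.7 and 105.2 CPM to 62.5, 83.4 and 81.3 CPM, again without overlap, a log2 fold change of -0.36 (SE 0.191).

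Together with Sdf2l1, these made 4 of 10 genes whose Top1 cKO-Topot libraries lay below all Top1 cKO-Veh libraries. Of the 13720 genes of at least 1 CPM, 900 did so, and 11.7% had groups that did not overlap in either direction. Of the 4, Calr alone passed the FDR, in the blocked fit. The median of the 10 was -0.18, against 0.00 over all genes of at least 1 CPM. Herpud1 differed in the other direction, by 0.40 (SE 0.260, interval from 0.899-fold to 1.93-fold), at 49.8, 37.5 and 69.9 CPM. Each of its Top1 cKO-Topot libraries was above the Top1 cKO-Veh library of the same number. Hsp90b1 (-0.16, SE 0.162), Dnajb9 (0.05, SE 0.193), Pdia4 (-0.09, SE 0.275) and Manf (-0.19, SE 0.252) had overlapping groups, as had Creld2 (0.76, SE 0.599), and Sdf2l1 differed by -0.65 (SE 0.389). The median astrocyte marker sum was lower in Top1 cKO-Topot (2503 against 3806 CPM), with overlapping ranges. All 8 astrocyte markers were negative here, with a median of -0.92. At the FDR 0 passed, at an unadjusted p under 0.05 there were 5, and 5 passed with the block, the fit in which Calr passed. The part of astrocyte RNA in these differences was not tested.

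No amino acid response gene passed in this comparison by the 3 tools, with 2 lower and 1 higher at an unadjusted p under 0.05 and a median of -0.02. With the block, the amino acid transporter gene Slc38a2 was higher by 0.91 (SE 0.126). Atf6 differed by -0.19 (SE 0.242), and none of the 13 sensor and processing genes passed by any of these fits. The ER chaperone and foldase list had 18 of 21 genes negative and a median of -0.18, close to that of the 10 genes, with 0 genes at an unadjusted p under 0.05 and only Ero1l past the FDR with the block (-0.54, SE 0.139).

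Relative to WT-Veh, whose libraries this comparison shares with the first 2, Top1 cKO-Topot had lower values for Hspa5 and Herpud1. Hspa5 averaged 313.2 CPM (301.1 to 325.1) against 463.3 ± 103.1 CPM (SD, n = 3), 67.6% of the WT-Veh mean, and the groups did not overlap. Its log2 fold change was -0.54 (SE 0.185), with an adjusted p of 0.126 by edgeR's quasi-likelihood test and 0.0023 with the replicate block. Of the fits with 1 library left out, the largest difference came without WT-Veh replicate 3, the low library (-0.72, adjusted p = 0.00938). Herpud1 averaged 52.4 ± 16.4 CPM, a log2 fold change of -0.70 (SE 0.237), with an adjusted p of 0.126 and of 0.00151 with the block. So 0 of the 10 passed, against 1.68% of all genes tested, and 2 passed with the block, against 7.37%. Of the 13720 genes of at least 1 CPM, 289 were lower and 113 higher, or 961 and 799 with the block. At an unadjusted p under 0.05 there were 2 of the 10, against 1626 lower and 1431 higher of those 13720 genes. By DESeq2 or edgeR's exact test there were 0 of the 10.

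Groups did not overlap for 3 of the 10 (Hspa5, Herpud1 and Xbp1, all lower). Of the 13720 genes of at least 1 CPM, 26.5% did not overlap in either direction, and 1978 were lower without overlap. Of the other 7, Hsp90b1 (-0.09, SE 0.195), Dnajb9 (0.09, SE 0.199) and Calr (-0.14, SE 0.179) had intervals that stayed within 0.701-fold and 1.42-fold. Xbp1 differed by -0.32 (SE 0.203), Pdia4 by -0.50 (SE 0.288) and Manf by -0.26 (SE 0.257), while Sdf2l1 and Creld2 had intervals from 0.419-fold to 1.55-fold and from 0.515-fold to 2.47-fold. Of the 10, 8 were negative, with a median of -0.28. The astrocyte marker sum was 1686 to 3110 CPM against 2370 to 4826 CPM, overlapping. Of the 8 astrocyte markers 6 were negative, with a median of -0.78, and 0 passed at the FDR, 4 were lower at an unadjusted p under 0.05 and 4 passed as lower with the block, the fit in which Hspa5 and Herpud1 passed. Their part in it was not tested. Amino acid response genes had 17 lower and 0 higher of 42, or 29 lower with the block, and a median of -1.15. Of the 13720 genes of at least 1 CPM, 289 were lower, or 961 with the block. The lists of other ER genes had 0 calls without the block by edgeR's quasi-likelihood test, DESeq2 or edgeR's exact test. At an unadjusted p under 0.05 there were 3 chaperones and foldases, 1 ERAD gene and 1 translocation gene. Of 13720 genes, 1626 were lower and 1431 higher at that p. With the block Ero1l (-0.85) and Creld1 (-0.66), a relative of Creld2, were lower and Fkbp14 (0.89) was higher. Ero1l also passed without the block when WT-Veh replicate 3 was left out (-1.17, adjusted p = 4.65e-05 by edgeR's quasi-likelihood test). Atf6 fell by 0.76 and Bax, a regulator of apoptosis, was higher by 0.81 in the blocked fit. Without WT-Veh replicate 3 and without the block, Atf6 (-0.99) and Wfs1 (-1.20) passed.

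**Figure D4:**
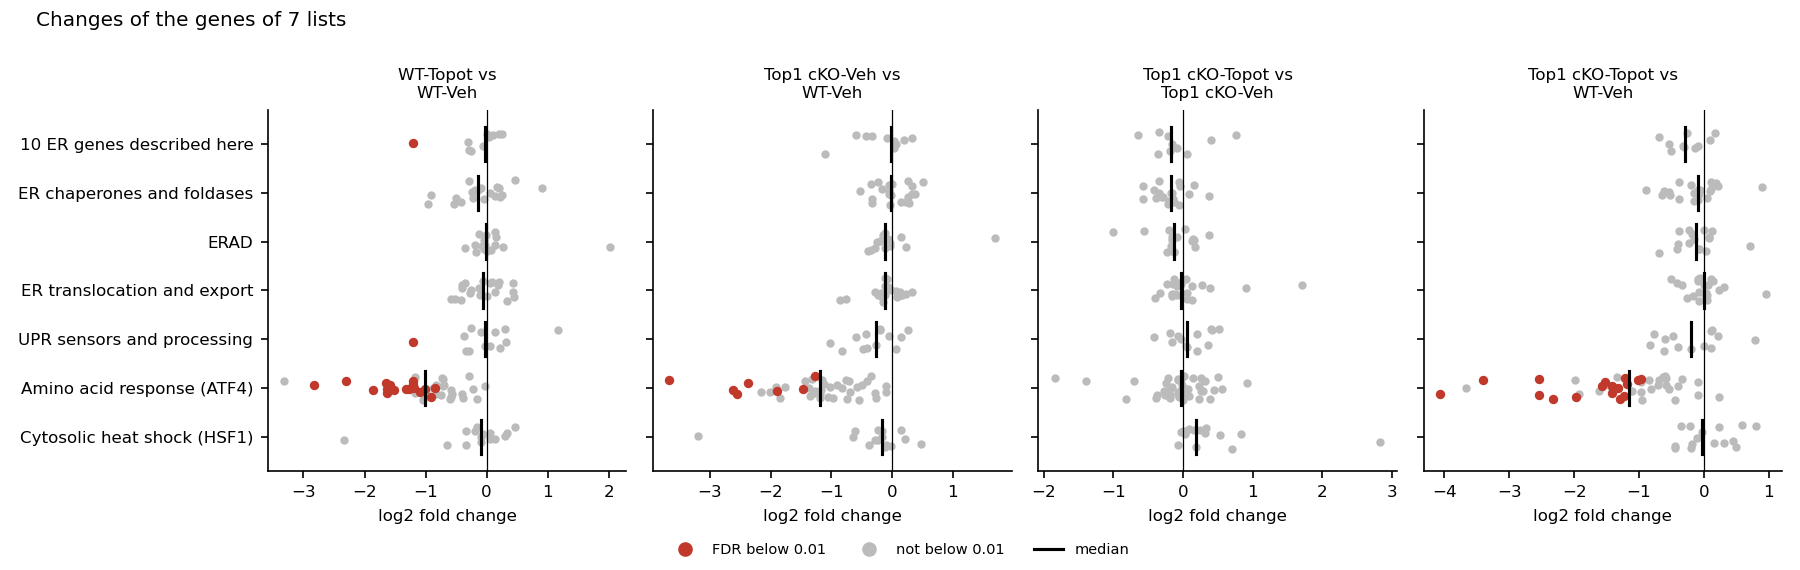
Log2 fold change of each gene above 1 CPM in 7 lists, 1 panel per group comparison, with red points past an FDR of 0.01 and a black bar at each median. The amino acid response list is shifted left in the 3 comparisons with WT-Veh (medians -1.0, -1.18 and -1.15), while medians of the ER chaperone, ERAD and translocation lists lie between -0.18 and 0.00 in all 4.

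Whether the topotecan difference was itself unlike in WT and Top1 cKO neurons was tested as an interaction, the log2 fold change in Top1 cKO minus that in WT. For Herpud1 it was 1.60 (SE 0.350, interval 0.87 to 2.33), with an adjusted p of 0.0230 by edgeR's quasi-likelihood test. It was lower with the drug in 3 of 3 numbered pairs of WT cultures and higher in 3 of 3 pairs of Top1 cKO cultures. The interaction passed the FDR by DESeq2 (1.63, adjusted p = 0.00154) and with the replicate block (1.56, SE 0.250, adjusted p = 1.25e-05). None of the 10 genes thus passed, against 0.435% of all genes, and 1 passed with the block, against 3.97%. Of the 13720 genes of at least 1 CPM, 9 passed as negative and 95 as positive, or 365 and 582 with the block. At an unadjusted p under 0.05 there were 816 negative and 1025 positive of 13720 genes of at least 1 CPM, and 2 of the 10.

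The second of these was Calr, at -0.56 (SE 0.221, adjusted p = 0.397 by edgeR's quasi-likelihood test, 0.0186 with the block). Hspa5 (-0.22, SE 0.226), Hsp90b1 (-0.21, SE 0.264), Xbp1 (-0.30, SE 0.269), Dnajb9 (0.31, SE 0.260), Pdia4 (0.21, SE 0.420), Manf (-0.45, SE 0.333), Sdf2l1 (-0.76, SE 0.591) and Creld2 (1.04, SE 0.782) had intervals that included 0. For Atf6 the interaction was 1.01 (SE 0.371), and it passed with the block alone (1.00, adjusted p = 8.76e-04 by edgeR's quasi-likelihood test). Wfs1 also passed with the block alone, in the other direction (-1.62, adjusted p = 4.51e-05 by the same test). Of the 42 amino acid response genes, 41 had a positive interaction and 3 passed: Atf4 (1.91, SE 0.245), Chac1 (2.52, SE 0.451) and Slc38a2 (1.80, SE 0.325), with 16 passing in the blocked fit. Of the 13720 genes of at least 1 CPM, 6591 were positive, 95 passed as higher and 582 did so in the blocked fit. Of the 9 genes with a promoter window, Herpud1 was the one with a CARE match and the one that passed in WT-Topot. CARE also matched in Txndc5, Cnpy2 and Kdelr1 of the other ER lists. Their log2 fold changes in WT-Topot were 0.21, -0.29 and 0.33, none past the FDR. Of the 13 amino acid response genes with a CARE match, Chac1, Asns, Slc7a11, Gars and Yars passed as lower in WT-Topot. Atf3, Trib3, Pycr1, Nupr1, Vldlr, Aars, Iars and Tars did not pass. Stc2 and Mthfd2, which passed as lower, are not among the 13. Any link between a CARE match and a change was not tested.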

How the data were processed

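Per the labels and the study's methods, polyA RNA was made into TruSeq libraries and sequenced in pairs; the authors removed adapter and rRNA reads, aligned to mm9 with TopHat, and deposited raw counts over RefSeq exons by gene symbol. The counter, its use of strand and versions are not given in the sources used here, so reads of Hsp90b1, Manf and Pdia4, whose exons overlap 1810014B01Rik, Vprbp and Mir704, may be split or shared.

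Members and gene lists were chosen with earlier results of these data known. Groups of 3 libraries were compared by edgeR 4.0.16 (R 4.3.3) quasi-likelihood tests on the deposited counts, TMM-scaled, 6 libraries per comparison and 12 for the interaction, without a filter, at the study's FDR of 0.01 over 23893 symbols, of which 5182 had no count. Intervals are 95%, from the fit without shrinkage of fold changes. CPM used TMM-scaled library sizes, and lists were summarized over genes averaging at least 1 CPM. Exon lengths and spans came from GENCODE vM1 (mm9). Libraries held 1730164 to 4583777 counts. Replicates are separate cultures per the study. Deviations from group means correlated at 0.261 to 0.485 for libraries of the same number (18 pairs) and -0.384 to -0.0494 for different numbers (36 pairs). The negative values follow in part from centering each group of 3 on its mean. The positive ones showed that libraries of the same number were alike, so a fit with replicate number as a block was made. Replicate 3 had the fewest counts in every group, and the part of depth in that likeness was not tested. The main fit has no block, as the study's methods name none, and calls given without mention of the block are from fits without it. Library pairs within a group differed beyond sampling noise (chi-square per degree of freedom 6.05 to 10.1). Alternatives were DESeq2 1.42.0 and its size factors, edgeR's exact test, filterByExpr (11486 to 12162 genes kept), the block, 1 fit of all libraries, and each library left out. The tests were tried on simulated counts first. Those counts held no replicate effect, so the trial did not check the block against one. A limit on false calls was set for dispersions taken from the trend over genes, not for gene-wise ones. Genes named from the lists were Atf6, Ern1, Eif2ak3, Atf4, Ddit3, Asns, Trib3, Chac1 and up to 6 genes per list and comparison that passed; genes passing with the block but not without it were added after their values were seen.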

Additional observations from a re-analysis of the deposited data

Results flagged for a closer look

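Genes were picked out here where topotecan acted differently in Top1 cKO and in WT cultures, either by the interaction test or because all 3 numbered pairs of cultures of 1 genotype moved one way and all 3 of the other the opposite way. Herpud1 was lower with topotecan in all 3 WT pairs and higher in all 3 Top1 cKO pairs, with an interaction of 1.60 on the log2 scale (adjusted p = 0.0230 by edgeR's quasi-likelihood test). Manf, at 32.2, 28.5 and 39.7 CPM in WT-Veh, 42.6, 32.1 and 44.1 CPM in WT-Topot, 26.2, 29.1 and 40.1 CPM in Top1 cKO-Veh and 22.7, 28.2 and 31.5 CPM in Top1 cKO-Topot, went the other way, higher in WT pairs and lower in Top1 cKO pairs, but its interaction of -0.45 was far from the threshold (adjusted p = 0.939). Exons of Manf overlap those of Vprbp on the opposite strand. Ddit3, which encodes the stress factor CHOP, had an interaction of 1.43 (adjusted p = 0.0788), lower in the WT pairs and higher in the Top1 cKO pairs. By the interaction test itself, Atf4 (1.91, adjusted p = 4.07e-04), Chac1 (2.52, adjusted p = 0.00589) and Slc38a2 (1.80, adjusted p = 0.00634) passed. Atf4 also passed under every alternative run. Chac1 and Slc38a2 did not pass with filterByExpr (adjusted p = 0.0113 and 0.0158), nor when WT-Topot replicate 3, Top1 cKO-Veh replicate 2 or Top1 cKO-Topot replicate 1 or 3 was left out. Chac1 also did not pass when WT-Veh replicate 2 or WT-Topot replicate 1 was left out, and Slc38a2 when WT-Topot replicate 2 was. Their adjusted p then ran up to 0.0169 and 0.0194. No explanation was weighed.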

How the results depend on the processing

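Of 50 results (10 genes in 5 contrasts) under 639 alternatives, 595 kept direction and side of the FDR, 10 came to pass it and 34, in 16 results, changed sign, none of them past the FDR and the largest at 0.39. The fall of Herpud1 in WT-Topot passed under every alternative run. Genes that came to pass were Herpud1 in Top1 cKO-Veh vs WT-Veh (DESeq2, block, exact test, each 1 of 10), Calr in Top1 cKO-Topot vs Top1 cKO-Veh (block, 1 of 10), Herpud1 and Hspa5 in Top1 cKO-Topot vs WT-Veh (block, 2 of 10) and Herpud1 in the interaction (DESeq2, block, 1 of 10). The replicate block changed no other call among the 10. With single libraries left out, the count of lower genes ran from 0 to 1 in both Top1 cKO comparisons with WT-Veh, and the median of the 10 in WT-Topot from -0.16 to 0.11.

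Hspa5 in WT-Topot was -0.0226 with DESeq2 size factors, -0.0244 with filterByExpr, -0.0231 with DESeq2, -0.00577 with all libraries in 1 fit, and -0.17 to 0.10 with single libraries left out. Sign changes when a library was left out gave ranges of -0.15 to 0.16 (Hsp90b1), -0.24 to 0.048 (Xbp1), -0.54 to 0.15 (Pdia4), -0.39 to 0.40 (Sdf2l1) and -0.51 to 0.12 (Creld2) in WT-Topot. They gave -0.12 to 0.19 (Hsp90b1), -0.13 to 0.14 (Dnajb9), -0.040 to 0.12 (Xbp1), -0.78 to 0.041 (Pdia4) and -0.27 to 0.057 (Manf) in Top1 cKO-Veh vs WT-Veh. They gave -0.056 to 0.21 (Dnajb9) and -0.26 to 0.26 (Pdia4) in Top1 cKO-Topot vs Top1 cKO-Veh, -0.28 to 0.034 (Hsp90b1) and -0.38 to 0.57 (Creld2) in Top1 cKO-Topot vs WT-Veh, and -0.26 to 0.56 (Pdia4) in the interaction.

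Counts of amino acid response genes were tried under the same alternatives after they were seen. In WT-Topot 17 lower became 30 with the block and 10 to 22 with a library left out. In Top1 cKO-Veh 7 lower became 3 with filterByExpr, 24 with DESeq2, 32 with the block, 22 with the exact test, 13 with all libraries in 1 fit and 3 to 17 with a library left out. In Top1 cKO-Topot vs Top1 cKO-Veh 0 higher became 1 with the block, and against WT-Veh 17 lower became 29. In the interaction 3 higher became 1 with filterByExpr, 9 with DESeq2, 16 with the block and 1 to 5 with a library left out. The cause was not tested. Depth limits Sdf2l1 and Creld2, at 11 to 33 and 3 to 23 reads per library.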

Other observations

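Over the 12 libraries, the mean z-score of log2(CPM + 1) of the 10 genes ran from -0.897 in Top1 cKO-Topot replicate 1 to 0.553 in WT-Veh replicate 1. The 10 genes followed it unevenly, with Pearson's r of 0.755 for Xbp1, 0.716 for Calr and 0.705 for Hspa5 but 0.300 for Herpud1, 0.0944 for Pdia4 and 0.0136 for Dnajb9, where each gene is part of the mean. The 5 of 9499 other genes above 10 CPM with the most similar pattern were Nabp1 (r = 0.919), Tra2b (0.874), Ppp1r1a (0.873), Wdr83 (0.848) and B4galnt1 (0.845). These libraries share groups and depth, so the correlations are a description only.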
